A study of Mus musculus with 3 samples.

Results

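C-type lectin receptors are surface proteins with which myeloid cells recognise microbial sugars and glycolipids and, for some members, material released from damaged cells. Most activating members carry no signaling motif of their own and pair with the adaptors FcRγ (gene *Fcer1g*) or DAP12 (*Tyrobp*), which recruit the kinase Syk and, further on, the CARD9, BCL10, and MALT1 complex. Inhibitory members carry a motif in their own tail that recruits the phosphatases SHP-1 (*Ptpn6*) and SHP-2 (*Ptpn11*). The transcripts described here were those of 6 genes chosen by name: *Clec4d* (MCL), *Clec4e* (Mincle), and *Clec4n* (Dectin family), which pair with FcRγ; *Clec7a* (Dectin family), whose tail signals to Syk directly; *Clec5a* (MDL), which pairs with DAP12; and *Clec4a2* (DCIR), an inhibitory receptor. Of the 6 genes, 5 matched a row by symbol among the 27998 genes of the count tables, and *Clec7a*, which matched none by symbol or identifier, was not analysed here.

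Unsorted cells of 3 sources, namely blood, bone marrow, and the site of tendon injury, were made into single-cell libraries. The mice were male C57BL/6J aged 10 weeks, taken 3 days after burn/tenotomy, a burn on the back combined with transection of the Achilles tendon that is followed by heterotopic ossification (bone formed in soft tissue). Bone marrow was flushed and blood was spun on a Ficoll gradient, each followed by red cell lysis, and the injury site was digested with enzymes. Thus blood neutrophils were those left in a fraction prepared for mononucleated cells. There was 1 library per tissue, no library of an uninjured mouse, and the number of mice behind each library was not given in the sources used here, so tissue, preparation, and library cannot be told apart and no test between tissues was possible. Levels are UMIs (counted molecules) per 1000000 UMIs of a cell class (CPM), with exact 95% Poisson intervals. Ratios carry exact intervals, and a difference of 2-fold or more is called only as a size. These intervals cover counting error only.

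The libraries held 1813, 2146, and 4780 cells of bone marrow, blood, and tendon after filtering, with medians of 22893, 8360.5, and 12177.5 UMIs per cell. They shared few cell barcodes, at most 5 between any pair. Each library was clustered alone, without the receptor genes or the gene lists described here, and clusters were named from marker genes. The main classes were immature and mature neutrophil-like, monocyte-like, and macrophage-like cells. In each of these the median over the class's own markers was the highest among the marker lists, except in the 38 macrophage-like cells of blood, which are not described further. In bone marrow the mature list stood at a median of 902 CPM in mature cells, where the immature list was still at 718. The stage of neutrophil clusters was decided after the clusters were seen, and a blood cluster of 51 cells led by *Ltf*, *Ngp*, and *Camp* was left without a stage. A tendon cluster of 609 cells led by *Cd74* and *H2-Aa* was left without a class name. Depth was uneven: mature neutrophil-like cells had a median of 3496 UMIs in tendon, against 8122 in blood.

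All 6 genes lie on chromosome 6 (GENCODE M21, GRCm38, the build that matches mm10). *Clec4a2* (chr6:123106428-123143999, plus strand), *Clec4n* (chr6:123229843-123247021, plus strand), *Clec4d* (chr6:123262111-123275265, plus strand), and *Clec4e* (chr6:123281789-123289870, minus strand) sit in one gene cluster. *Clec4d* and *Clec4e* are neighbors whose 3′ ends face each other across 6523 bp, and 15089 bp separate *Clec4n* from *Clec4d*. *Clec7a* lies at chr6:129461591-129472779 and *Clec5a* at chr6:40574894-40585821, both on the minus strand and far from this cluster. Promoters were taken from RefSeq (GRCm38.p6), which gave an entry for 5 of the 6 genes, *Clec4n* being the one without. Those of *Clec4d* and *Clec4e* are shown because the levels of this neighboring pair ran together across cell classes, with capitals for matches to the C/EBP letters TTGCNNAA on either strand. Each runs 5′ to 3′ along its gene, from 250 bases before the start site to 50 after it, *Clec4d* at chr6:123261857-123262156 (plus strand) and *Clec4e* at chr6:123289822-123290121 (minus strand).
Clec4d: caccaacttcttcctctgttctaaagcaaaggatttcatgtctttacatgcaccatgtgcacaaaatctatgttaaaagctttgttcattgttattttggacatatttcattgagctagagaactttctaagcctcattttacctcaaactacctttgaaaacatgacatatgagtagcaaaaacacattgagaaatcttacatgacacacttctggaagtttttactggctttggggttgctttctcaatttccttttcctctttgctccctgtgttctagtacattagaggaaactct
Clec4e: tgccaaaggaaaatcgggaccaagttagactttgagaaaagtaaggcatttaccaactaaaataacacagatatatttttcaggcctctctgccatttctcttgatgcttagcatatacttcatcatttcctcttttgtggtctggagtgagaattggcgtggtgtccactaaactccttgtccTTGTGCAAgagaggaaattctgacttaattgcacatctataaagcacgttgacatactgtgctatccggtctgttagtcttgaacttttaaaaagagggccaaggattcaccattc
The *Clec4e* promoter held 1 C/EBP match, 66 to 59 bases before the start site, and the *Clec4d* promoter held none. Among all 32851 promoters of the same length, 10.8% held such a match. AP-1 (TGANTCA, in 7.81% of all promoters) and PU.1 (GAGGAAGT, in 3.20%) were searched on both strands as well, and the only other match in the promoters of these genes was 1 for AP-1 in that of *Clec4a2*. A match is a description of the letters and not evidence of binding.

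*Clec4d* encodes MCL, which takes part in the surface display of Mincle. Its level was 15.2 CPM (95% interval 12.3 to 18.6) in granulocyte progenitor-like cells of bone marrow, 2.42 (1.82 to 3.15) in immature neutrophil-like cells, 201 (191 to 212) in mature neutrophil-like cells of bone marrow, 654 (625 to 685) in those of blood, and 2468 (2403 to 2533) in those of tendon. The value was thus lowest at the immature stage, and each later step lay outside the interval of the one before. *Clec4e* encodes Mincle, a receptor for mycobacterial cord factor and for a protein released by dying cells. Its level was 18.2 (15.02 to 21.9), 28.8 (26.7 to 31.1), 268 (256 to 280), 446 (421 to 471), and 2473 (2408 to 2539) CPM over the same 5 classes. Over all 24 groups of at least 50 cells, both genes had their highest level in mature neutrophil-like cells of tendon, with no overlap with the next group. The next was mature neutrophil-like cells of blood for *Clec4d* and monocyte-like cells of tendon for *Clec4e*.

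*Clec4n*, a receptor for fungal mannans, followed another course. Its level was 0 UMIs in granulocyte progenitor-like cells (up to 0.484 CPM), 1 UMI in immature and 1 UMI in mature neutrophil-like cells of bone marrow, 6.07 CPM (3.54 to 9.72) in mature neutrophil-like cells of blood, and 141 (126 to 158) in those of tendon. *Clec5a*, which pairs with DAP12, was at 68.4 (62.0 to 75.2), 132 (127 to 137), 100.2 (93.0 to 108), 47.1 (39.4 to 55.9), and 255 (235 to 277) CPM from progenitor to tendon, lowest in blood and highest in tendon. *Clec4a2*, the inhibitory member, ran the other way after the immature stage: 57.8 (51.9 to 64.1), 365 (357 to 373), 298 (286 to 311), 123 (111 to 137), and 108 (95.1 to 123) CPM. Its blood and tendon intervals overlapped.

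**Figure D1:**
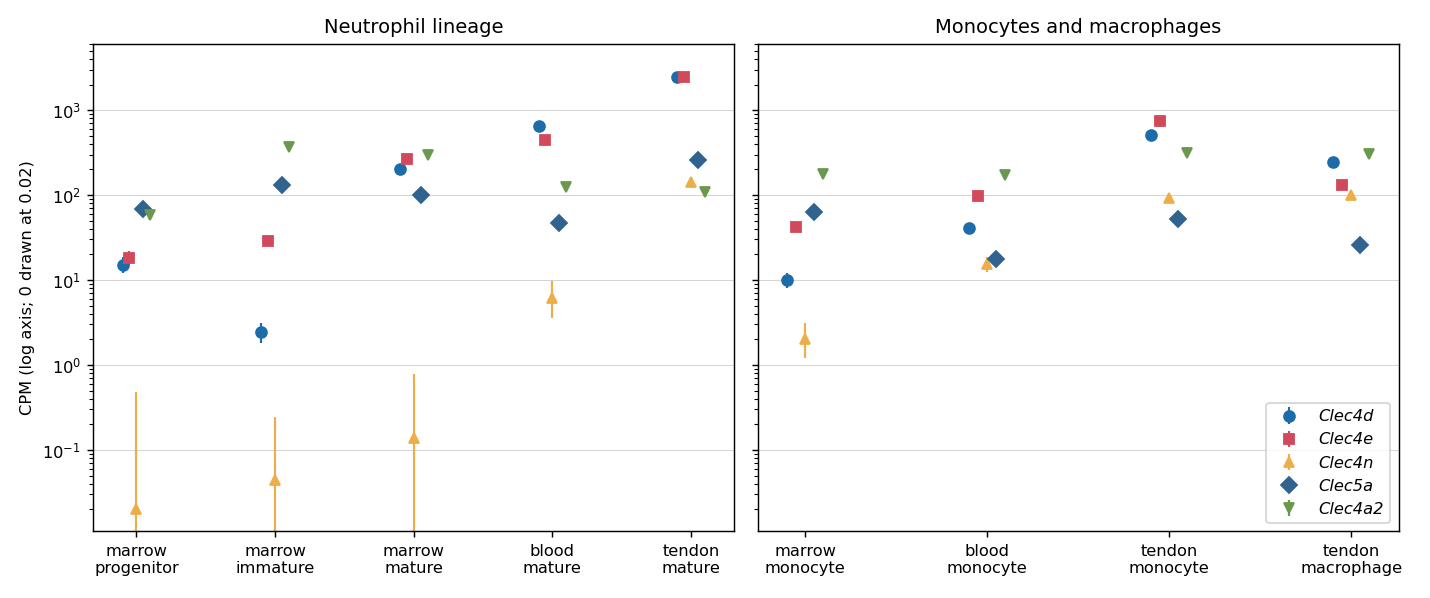
Levels of the 5 measured receptor genes in the neutrophil lineage (left) and in monocyte- and macrophage-like cells (right), in CPM on a log axis, with 95% Poisson intervals as bars; a level of 0 is drawn at 0.02 and 1 library stands behind each tissue. *Clec4d* and *Clec4e* reach 2468 and 2473 CPM in mature neutrophil-like cells of tendon, while *Clec4a2* is highest at the immature stage in marrow, at 365 CPM.

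Within bone marrow, where both stages came from the same library, mature neutrophil-like cells (467 cells) were compared with immature ones (722 cells). *Clec4d* was higher in mature cells by 6.38 on the log2 scale (5.99 to 6.79) and *Clec4e* by 3.21 (3.08 to 3.34). *Clec5a* and *Clec4a2* differed by less than 2-fold, at −0.39 (−0.51 to −0.28) and −0.29 (−0.36 to −0.22), and turned positive when ratios were centered on the median of all genes, which was −0.58. *Clec4n* had too few UMIs. Thus 2 of 4 members with enough UMIs were at least 2-fold higher and 0 lower, where 12.2% of all 9940 genes were higher and 40.6% lower. The 2 mature clusters of bone marrow were themselves unequal. The cluster led by *Gm5483* and *Stfa2l1* had 375 CPM of *Clec4d* (354 to 397), and the cluster led by *Mmp8* and *Mmp9* had 53.5 (46.5 to 61.3). The immature clusters were unequal too, with 52.8 CPM of *Clec4e* (47.8 to 58.2) in that led by *St3gal5*. Those led by *Fcnb* and by *Hist1h2ap* had 22.6 (18.2 to 27.8) and 13.9 (11.8 to 16.3). With the stage set by the mean marker z alone, the *Clec4e* ratio was 2.34.

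Between blood (337 cells) and bone marrow, mature neutrophil-like cells of blood had more *Clec4d*, by 1.70 on the log2 scale (1.601 to 1.80). *Clec4e* was 0.74 higher (0.63 to 0.84), less than 2-fold. *Clec5a* was lower, at −1.09 (−1.37 to −0.82), and so was *Clec4a2*, at −1.28 (−1.44 to −1.11). Thus 1 of 4 members was at least 2-fold higher, where 11.8% of 7245 genes were, and 2 were at least 2-fold lower, where 10.1% were. The bone marrow side pooled the unequal clusters. The cluster led by *Gm5483* and *Stfa2l1*, genes that also led the blood cluster, had 375 CPM of *Clec4d* and 91.6 of *Clec5a*. Blood, at 654 and 47.1 CPM, was less than 2-fold from that cluster for both. *Clec4a2*, at 123 CPM in blood and 255 in that cluster, stayed past 2-fold. The counts above hold for the pooled class. *Clec4n*, with 17 UMIs in blood and 1 in marrow, was below the minimum of 20.

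The comparison of all neutrophil-like cells of tendon (621 cells) with those of blood (388 cells) depended on which cells were pooled. A tendon cluster of 62 immature neutrophil-like cells, led by *Camp*, *Ngp*, and *Ltf*, had a median of 26539 UMIs per cell and weighed heavily in the summed counts. *Elane*, *Ctsg*, *Prtn3*, and *Ms4a3*, granulocyte progenitor markers, came next among its leading genes. Its markers were mixed, with a median of 495 CPM over the immature list and 245 over the granulocyte progenitor list. The median was 293 over the monocyte list and 273 over the macrophage list. With the stage set by the mean marker z alone, the pooled *Clec4d* ratio to tendon monocyte- and macrophage-like cells was 3.08, as in mature cells alone. It was 2.31 with the rule used here, so the name of this cluster depends on the rule. It had 84.6 CPM of *Clec4d* (71.3 to 99.6), 96.3 of *Clec4e* (82.2 to 112), and 22.9 of *Clec4n* (16.3 to 31.3). In the pooled cells, 4 of 5 members were at least 2-fold higher in tendon and 0 lower, but so were 48.0% of all 9016 genes (8.92% lower), with a median over all genes of 0.91 on the log2 scale. Relative to that median, 1 member (*Clec4n*) remained past 2-fold. Before centering, the log2 ratios were 4.21 for *Clec4n* (3.53 to 4.98), 1.80 for *Clec4e* (1.72 to 1.88), and 1.69 for *Clec5a* (1.46 to 1.93). They were 1.40 for *Clec4d* (1.33 to 1.48) and 0.26 for *Clec4a2* (0.10 to 0.43). In these pooled cells *Clec4n* had 356 UMIs in tendon and 18 in blood, so it reached the minimum of 20 UMIs through tendon. The same comparison among mature neutrophil-like cells alone, added after this cluster was seen, had a median over all genes of −0.06, with 17.7% of 6448 genes at least 2-fold higher and 15.3% lower. There, again 4 of 5 members were higher and 0 lower. *Clec4n* was higher by 4.54 (3.84 to 5.34), *Clec4e* by 2.47 (2.38 to 2.56), *Clec5a* by 2.44 (2.16 to 2.72), and *Clec4d* by 1.91 (1.84 to 1.99). *Clec4n* reached the minimum of 20 UMIs through tendon (317 UMIs, against 17 in blood). Of the members that reached it on both sides, *Clec4e*, *Clec5a*, and *Clec4d* were higher and *Clec4a2* was within 2-fold. The 4 higher members stayed past 2-fold in all 17 alternatives. *Clec4a2* differed by −0.19 (−0.43 to 0.06), an interval that includes 0.

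Transcripts of macrophage markers also differed in this comparison. The 15 macrophage markers summed to 2082 CPM in mature neutrophil-like cells of tendon, with 0 of them at 0, against 214 in those of blood, with 8 at 0. In macrophage-like cells of tendon the same markers summed to 25933 CPM. Whether these marker UMIs came from other cells was not tested. In the alternative with free RNA subtracted, 48 of 48 log2 ratios of members, over all comparisons, stayed within their counting intervals. However, the deposited counts cover 1855, 2241, and 5629 barcodes, of which only 15, 57, and 651 failed the cell filter. They thus hold few empty droplets from which to measure free RNA, and how much was subtracted is not given here. That alternative cannot decide the question, and the part of RNA of other cells in the ratios was not tested. *Clec4n* was at 141 CPM (126 to 158) in mature neutrophil-like cells of tendon, 91.2 (82.6 to 100.5) in monocyte-like cells, 100.6 (96.3 to 105) in macrophage-like cells, 128 (111 to 147) in dendritic cell-like cells, and 165 (155 to 175) in the cluster of 609 cells led by *Cd74*, so that the last of these and the dendritic cell-like cells overlapped the neutrophils. *Clec4a1* and *Clec4a3*, genes of the same cluster, were at 3.57 and 10.3 CPM in those neutrophils, against 183 and 249 in monocyte-like cells. Mature neutrophil markers, among them *S100a8* and *S100a9*, summed to 196150 CPM in mature neutrophil-like cells of tendon and 338168 in those of blood. Leaving the 50 most abundant genes out of the totals lowered the ratio of *Clec4d* to 1.69, with the count of members unchanged at 4.

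**Figure D2:**
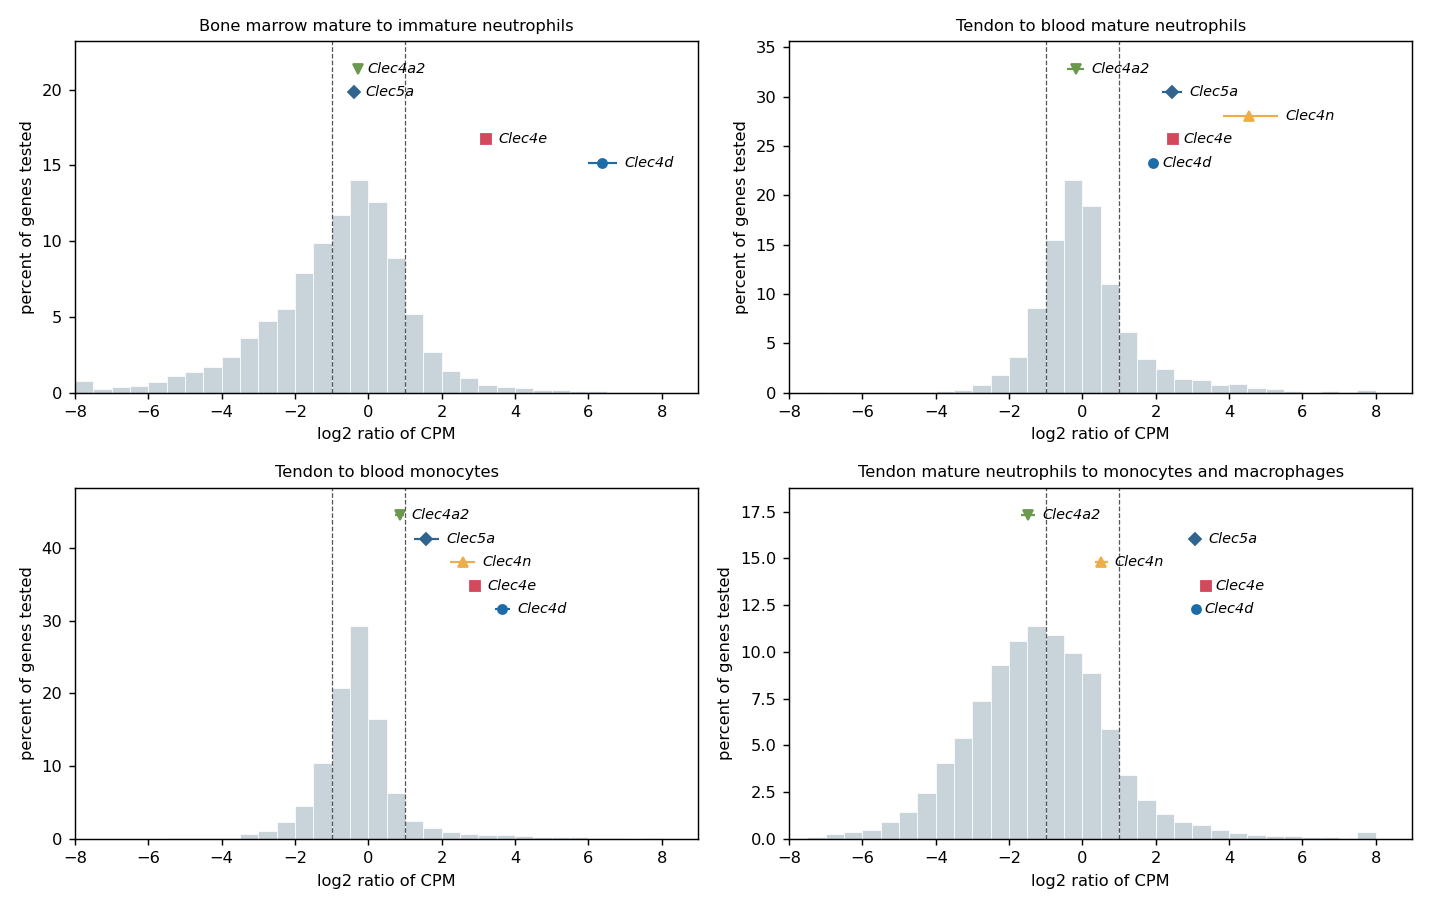
Log2 ratios of all genes with at least 20 UMIs (gray bars, percent of genes in steps of 0.5, values beyond the axis placed in the end bars) with the receptor genes above them (points, 95% intervals as bars; height has no meaning) in 4 comparisons; dashed lines mark 2-fold. Among mature neutrophil-like cells, *Clec4n*, *Clec4e*, *Clec5a*, and *Clec4d* lie between 1.91 and 4.54 for tendon over blood, and *Clec4a2* lies at −0.19. There, *Clec4n* (4.54) reached the minimum of 20 UMIs through tendon, with 317 UMIs against 17 in blood.

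In monocyte-like cells *Clec4d* was at 10.0 CPM in bone marrow (8.13 to 12.2), 40.4 in blood (35.4 to 45.9), and 509 in tendon (488 to 530). *Clec4e* was at 42.4 (38.4 to 46.6), 98.1 (90.2 to 107), and 738 (713 to 764), and *Clec4n* at 1.999 (1.22 to 3.09), 15.4 (12.3 to 18.9), and 91.2 (82.6 to 100.5). For these 3 activating members the order was marrow, blood, tendon without overlap. *Clec5a* was again lowest in blood, at 17.6 CPM (14.4 to 21.4), against 62.8 (58.0 to 67.9) in marrow and 52.4 (45.9 to 59.5) in tendon. *Clec4a2* was at 177 (169 to 185) in marrow, 171 (161 to 182) in blood, and 309 (293 to 325) in tendon.

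Between tendon (405 cells) and blood (310 cells), 4 of 5 members were at least 2-fold higher in monocyte-like cells and 0 lower, where 7.92% of 9605 genes were higher and 19.4% lower. The log2 ratios were 3.65 for *Clec4d* (3.46 to 3.85), 2.91 for *Clec4e* (2.78 to 3.04), 2.57 for *Clec4n* (2.23 to 2.92), and 1.57 for *Clec5a* (1.23 to 1.92), with 0.85 for *Clec4a2* (0.73 to 0.97). Between blood and bone marrow (350 cells), 3 of 5 were higher and 1 lower, where 5.73% of 10366 genes were higher and 12.0% lower. *Clec4n* was higher by 2.94 (2.23 to 3.72), *Clec4d* by 2.02 (1.67 to 2.37), and *Clec4e* by 1.21 (1.03 to 1.40), *Clec5a* was lower at −1.83 (−2.15 to −1.53), and *Clec4a2* was at −0.05 (−0.16 to 0.07). These comparisons share the blood library, so their ratios are not independent. The bone marrow class pooled unequal clusters, with 55.4 CPM of *Clec4e* (49.8 to 61.4) in that led by *S100a4* and *Clec4a3* (276 cells). The cluster led by *Klf4* (74 cells) had 17.5 (13.3 to 22.5). Blood, at 98.1 CPM, was less than 2-fold above the larger cluster. With cells weighted equally the *Clec4e* ratio was 0.80. *Clec4d* and *Clec4n*, at 12.3 and 2.74 CPM in the larger cluster, stayed past 2-fold. Nonclassical monocyte-like cells of blood (115 cells) had 95.7 CPM of *Clec4e* (77.0 to 118), a level that overlapped that of monocyte-like cells. They had 18.1 CPM of *Clec4a2* (10.53 to 28.9) and 0 UMIs of *Clec5a* (up to 3.19 CPM).

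In tendon, macrophage-like cells (1465 cells) were set against monocyte-like cells. *Clec4e* was lower in macrophage-like cells, at −2.47 on the log2 scale (−2.55 to −2.40), *Clec4d* at −1.06 (−1.13 to −0.99), and *Clec5a* at −1.02 (−1.25 to −0.79). *Clec4n* at 0.14 (−0.01 to 0.30) and *Clec4a2* at −0.03 (−0.11 to 0.06) had intervals that include 0. Thus 3 of 5 members were lower and 0 higher, where 5.81% of 11318 genes were lower and 28.1% higher. *Clec4d* and *Clec5a* lay close to the 2-fold limit, and *Clec4e* alone stayed past it under 4 of the 17 alternatives. The macrophage-like clusters differed among themselves. The cluster led by *Arg1*, an enzyme of arginine breakdown, had 216 CPM of *Clec4e* (207 to 225) and 352 of *Clec4d* (340 to 364). The cluster led by *Ccl8* and *Cd163*, a scavenger receptor of resident macrophages, had 56.7 (51.8 to 61.9) and 159 (151 to 167), and the cluster led by the interferon-induced *Rsad2* had 66.6 (55.9 to 78.7) and 93.1 (80.5 to 107). For *Clec4n* the order of the first pair was turned, with 120 CPM (113 to 128) in the *Ccl8* cluster and 86.04 (80.3 to 92.0) in the *Arg1* cluster.

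Neutrophil-like cells were then set against monocyte- and macrophage-like cells of the same tendon library (1870 cells). All neutrophil-like cells had 3 of 5 members at least 2-fold higher and 0 lower, where 10.6% of 11638 genes were higher and 18.9% lower. The log2 ratios were 2.59 for *Clec4e* (2.54 to 2.64), 2.49 for *Clec5a* (2.34 to 2.64), and 2.31 for *Clec4d* (2.26 to 2.36). *Clec4n* was at −0.13 (−0.30 to 0.03) and *Clec4a2* at −0.81 (−0.93 to −0.70). Mature cells alone had *Clec4e* higher by 3.36 (3.31 to 3.41), *Clec4d* by 3.08 (3.03 to 3.14), and *Clec5a* by 3.06 (2.91 to 3.22), with *Clec4n* at 0.51 (0.34 to 0.68) and *Clec4a2* lower at −1.49 (−1.68 to −1.30). That is 3 members higher and 1 lower, where 10.4% of 11482 genes were higher and 54.0% lower. Since the median over all genes was −1.17 here, *Clec4a2* was at −0.32 relative to it, within 2-fold. *Clec4n* was at 1.69 relative to it, past 2-fold. In blood, neutrophil-like cells exceeded monocyte-like cells by 3.75 for *Clec4d* (3.56 to 3.95), 2.08 for *Clec4e* (1.94 to 2.23), and 1.59 for *Clec5a* (1.24 to 1.95). *Clec4n* was lower there, at −1.66 (−2.48 to −0.91), and *Clec4a2* was at −0.25 (−0.40 to −0.09). *Clec4n* had 18 UMIs in these neutrophil-like cells and 89 in monocyte-like cells, so it reached the minimum number of UMIs through the monocyte-like cells. With it counted, 3 of 5 members were higher and 1 lower, where 10.4% of 9354 genes were higher and 54.7% lower. Relative to the median over all genes, −1.22, *Clec4n* was at −0.44, and *Clec4a2* turned to 0.97; it was also positive, at 0.43, with the 50 most abundant genes left out of the totals.

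**Figure D3:**
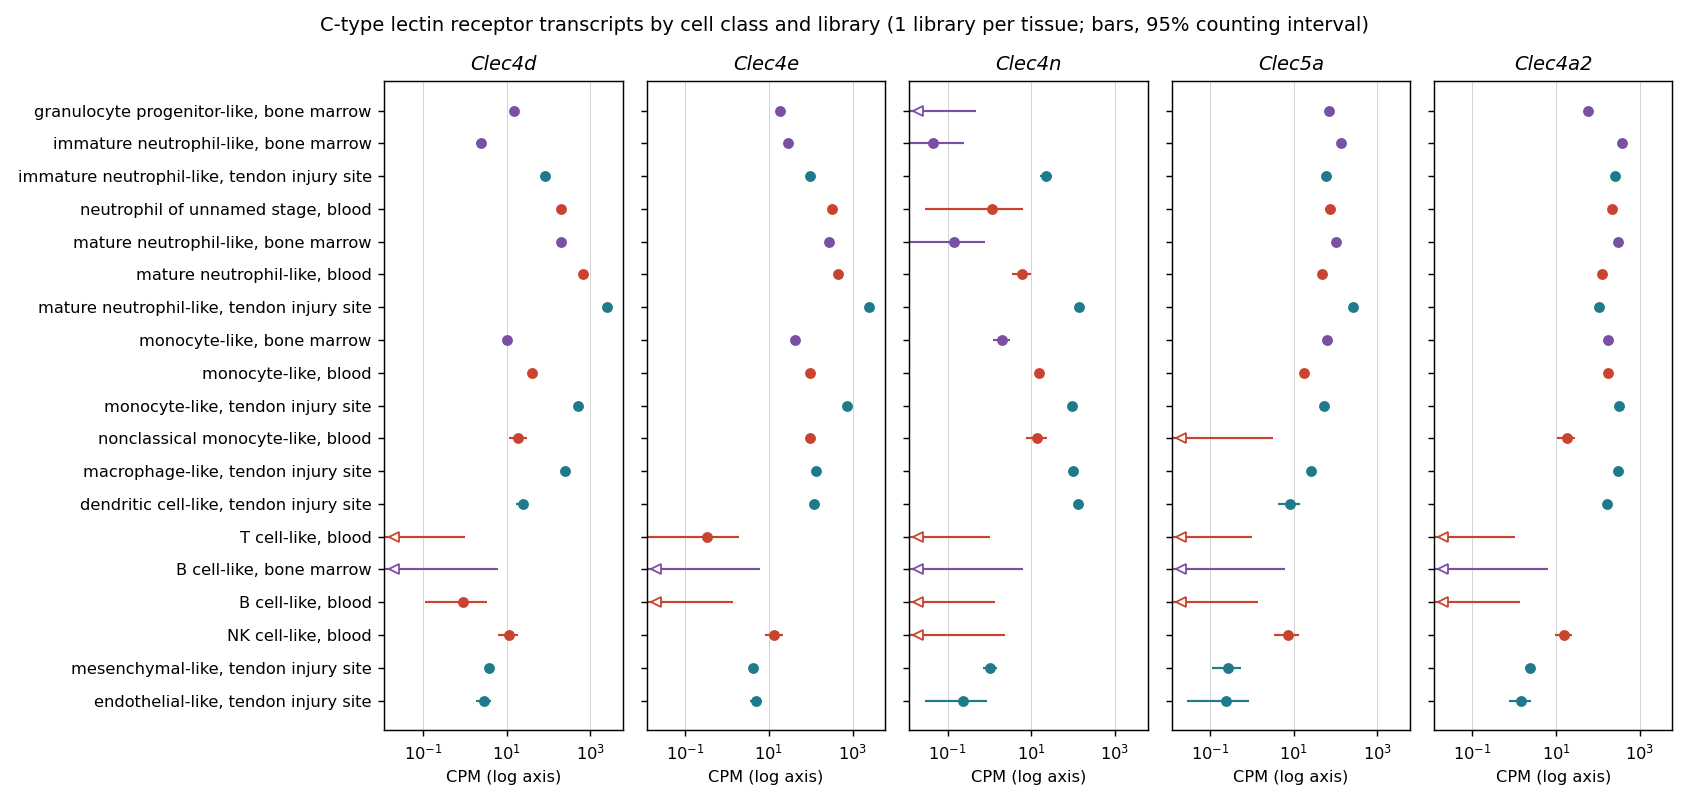
CPM of each measured receptor gene (log axis) in classes of at least 50 cells, colored by library (purple, bone marrow, red, blood, and teal, tendon injury site), with 95% Poisson intervals. Skeletal muscle-, mural-, and keratinocyte-like cells and the cells without a class name are not drawn. Open triangles at the left edge stand for 0 UMIs. The T cell-, B cell-, mesenchymal-, and endothelial-like cells shown lie at or below 4.97 CPM for every gene, and some myeloid classes lie as low, such as immature neutrophil-like cells of bone marrow for *Clec4d* (2.42 CPM) and *Clec4n* (1 UMI).

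Lymphoid and stromal cells gave the levels outside myeloid cells. In blood, T cell-like cells (295, a cluster led by *Cd8b1* and *Cd8a*) held 1 UMI and B cell-like cells (370) held 2 UMIs over the 5 genes. Blood cells without a class name (444) held 7 UMIs of *Clec4d*, 2 of *Clec4e*, and 0 of the others. They were a cluster of 368 cells led by hemoglobin genes, with *Cd4* among its leading genes, and a cluster of 76 led by *Cxcr6*. NK cell-like cells (151) had 11.2 CPM of *Clec4d* (6.11 to 18.7), 13.6 of *Clec4e* (7.90 to 21.7), and 15.2 of *Clec4a2* (9.13 to 23.7), with UMIs in 5, 5, and 3 cells. Mature neutrophil markers summed to 13152 CPM in these NK cell-like cells and to 151 in T cell-like cells, and their part in the values was not tested. In tendon, mesenchymal-like cells (696) had 3.90 CPM of *Clec4d* (3.17 to 4.74), 4.05 of *Clec4e* (3.31 to 4.91), 1.04 of *Clec4n* (0.687 to 1.52), 0.270 of *Clec5a* (0.109 to 0.557), and 2.32 of *Clec4a2* (1.77 to 2.98). Other tendon classes were higher for some genes. Skeletal muscle-like cells (128) had 19.7 CPM of *Clec4e* (12.8 to 28.8) and mural-like cells (110) had 10.4 of *Clec4d* (7.10 to 14.7). In the smallest classes, 22 B cell-like cells had 171 CPM of *Clec4a2* (95.7 to 282) from 2 cells, and 31 Schwann-like cells had 85.2 of *Clec4d* (53.4 to 129) from 1 cell. Dendritic cell-like cells of tendon (151) had the lowest *Clec4d* of the named myeloid classes of that library with at least 50 cells, at 24.3 CPM (17.3 to 33.2), beside 128 of *Clec4n* (111 to 147) and 166 of *Clec4a2* (146 to 187).

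To compare shares of cells across depths, each cell was thinned to 1000 UMIs. Among 539 mature neutrophil-like cells of tendon (20 were too shallow), 85.9% (82.7 to 88.7, exact binomial) kept a UMI of *Clec4d* and 79.8% (76.1 to 83.1) one of *Clec4e*. In blood the shares were 47.0% (41.6 to 52.5) and 34.4% (29.3 to 39.8) of 334 cells, and in bone marrow 22.2% (18.5 to 26.3) and 24.8% (20.97 to 29.0) of 463. Without thinning the same shares were 97.9% and 96.2% in tendon, 97.0% and 92.0% in blood, and 76.0% and 92.1% in bone marrow, a narrower spread than after thinning. In T cell-like cells of blood the thinned shares were 0 of 295 cells for every member (exact interval 0 to 1.24%). The floor of 3 counts is 1.02% of these cells, which limits cells with a UMI at this depth and not cells that express the gene, at a median depth of 9884 UMIs before thinning. In mesenchymal-like cells of tendon they were 0.576% for *Clec4d* and 0.288% for *Clec4e*, before thinning 6.75% and 6.03%. *Clec4n* was kept in 11.9% (9.27 to 14.9) of mature neutrophil-like cells of tendon and 0.599% (0.0726 to 2.15) of those of blood.

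The receptors were also counted per cell. At 1000 UMIs, 79.4% (75.7 to 82.7) of mature neutrophil-like cells of tendon had a UMI of at least 2 of the 5 genes and 2.41% (1.29 to 4.09) had none. At least 2 were found in 24.3% (19.8 to 29.2) of mature neutrophil-like cells of blood, 18.8% (15.3 to 22.7) of those of bone marrow, 36.5% (31.8 to 41.4) of monocyte-like cells of tendon, and 14.0% (12.2 to 15.9) of its macrophage-like cells. *Clec4d* and *Clec4e* were found together in 69.0% (64.9 to 72.9) of mature neutrophil-like cells of tendon, and the product of their separate shares was 68.5%. In macrophage-like cells they were together in 4.22% (3.24 to 5.39), where the product was 2.28%; this class pools clusters that differed in both genes.

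**Figure D4:**
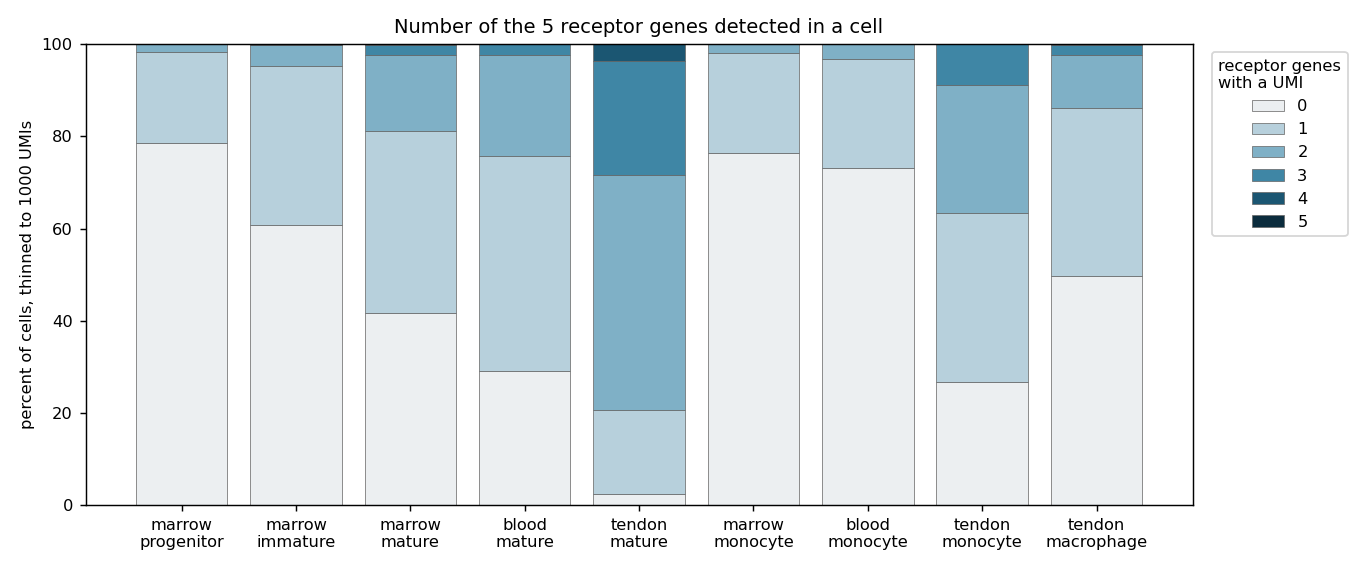
Share of cells (percent, stacked) by the number of the 5 measured receptor genes with at least 1 UMI, after thinning each cell to 1000 UMIs. In mature neutrophil-like cells of tendon 79.4% of cells have 2 or more, against 24.3% in blood and 18.8% in bone marrow.

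The partners of the receptors were counted in the same way. Among mature neutrophil-like cells, where 17.7% of all genes were at least 2-fold higher in tendon than blood and 15.3% lower, 0 of 3 adaptor genes differed by 2-fold. *Fcer1g* was at 2634 and 1797 CPM and *Tyrobp* at 4663 and 4666. Of 13 kinase and CARD9-branch genes with enough UMIs, 1 was at least 2-fold higher in tendon, *Malt1*, at 1.70 (1.201 to 2.23), and 1 was lower, *Card9*, at −1.08 (−1.98 to −0.25), with 7.58 CPM in tendon and 16.1 in blood. *Card9* was below the minimum number of UMIs in tendon and reached it through blood, the side where it was higher. *Syk* was at 347 and 262 CPM. Of 3 inhibitory phosphatase genes none differed by 2-fold, with *Ptpn6* at 142 and 255 CPM. In monocyte-like cells, where 7.92% of all genes were higher in tendon and 19.4% lower, the adaptors again gave 0 of 3, the kinase list had 2 of 13 higher (*Malt1* and *Vav3*) and 2 lower (*Card9* and *Fgr*), and *Ptpn6* was lower in tendon at −1.44 (−1.57 to −1.30). In mature against immature cells of bone marrow, where 12.2% of all genes were higher and 40.6% lower, 1 of 3 adaptors passed 2-fold. *Tyrobp* was 1.35 higher (1.32 to 1.37), and 5 of 13 kinase-list genes, *Syk*, *Bcl10*, *Prkcd*, *Lyn*, and *Fgr*, were at least 2-fold higher and 0 lower. In all neutrophil-like cells of tendon against blood, 0 of 3 adaptors were higher and 1 lower, beside 48.0% and 8.92% of all genes. Of 13 kinase-list genes, 2 were higher there and 2 lower. In mature neutrophil-like cells of tendon against its monocyte- and macrophage-like cells, 1 of 3 adaptors was higher and 0 lower. Of 14 kinase-list genes, 4 were higher and 1 lower, beside 10.4% and 54.0% of all genes.

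Other C-type lectin genes were listed by their place in the genome. Among mature neutrophil-like cells, 6 of the 13 in the *Clec4* and Dectin gene clusters had enough UMIs. Of these, 2 were at least 2-fold higher in tendon than blood and 3 lower, beside 17.7% and 15.3% of all genes. *Olr1*, a scavenger receptor for oxidized lipoprotein, had 88.7 CPM in tendon and 1 UMI in blood, and *Clec1a* was at 37.4 and 2.14 CPM. Both reached the minimum of 20 UMIs through tendon, so their direction was fixed by it. *Clec12a*, an inhibitory receptor, was lower at −2.01 (−2.44 to −1.60), as were *Clec4a1* and *Clec4a3*. *Clec4a1* had fewer than 20 UMIs in tendon and reached the minimum through blood, so its direction was fixed by it. Genes of the *Clec4a* family are related in sequence, and how reads were assigned among them was not tested, so the values of *Clec4a2* are uncertain in that respect. Of the 13 C-type lectin genes elsewhere in the genome, 3 reached 20 UMIs. *Cd302* had 57 UMIs in tendon and 4 in blood, and *Mrc1*, a macrophage marker, had 29 and 0, so both reached the minimum through tendon alone and their direction was fixed by it.

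Over 22 named groups of at least 50 cells, the correlation of log2(CPM + 1) was 0.94 between *Clec4d* and *Clec4e*, 0.89 between *Clec5a* and *Clec4a2*, and 0.34 between *Clec4n* and *Clec5a*. The groups share 3 libraries, so these values only describe likeness. The gene most like *Clec4d* was *Por* (r = 0.92), that most like *Clec4e* was *Lilrb4a* (0.96), followed by *Trem1* (0.95), an activating receptor that pairs with DAP12. *Fem1c* (0.91) was most like *Clec4n*, *Hk3* (0.92) most like *Clec5a*, and *Alox5ap* (0.93) most like *Clec4a2*, with *Fcer1g* also among its first 5 (0.91).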

How the data were processed

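The deposited matrices hold counts of UMIs per gene and cell, made by the authors from 10x single cell 3′ libraries. The matrix headers name Cell Ranger 5.0.1, and the submitters' processing notes name build mm10. From these counts, cells with at least 200 genes and at most 20% mitochondrial UMIs were kept, and the highest Scrublet scores were removed as doublets at 0.8% per 1000 cells. Each library was clustered alone (scanpy 1.11.5; 2000 variable features, 30 principal components, Leiden resolution 0.5). A cluster took the class with most markers among its 100 leading genes (at least 3), unless another class had more among the first 10. The stage of neutrophil clusters took 3 versions of this rule, all tried after the clusters were seen: the mean marker z alone, the 10 leading genes first, and the one used, most markers among the 100 (ties, as in 1 marrow cluster of 338 cells, to the higher mean z), with no stage where another led the 10. The other 2 were run as alternatives. CPM, ratios, and exact intervals used summed counts; genes needed 20 UMIs over both classes, a 0 was set to 3 counts, and the ratio code was tested on simulated data. Of 10 comparisons, 2 (mature neutrophil-like cells only) were added after the clusters were seen. No p-value was computed, since each tissue is 1 library. Every measured member was described in every comparison. Gene lists of partners and other lectins were described in some of them, and the 5 most alike genes were ranked for each member. The members and lists were chosen with earlier results of these data known. Alternatives covered cell filters, doublets, resolution, kept receptor genes, integration with Seurat 5.3.0, naming of single cells, weighting, centering, abundant genes, free RNA, and minimum UMIs.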

Additional observations from a re-analysis of the deposited data

Results flagged for a closer look

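The contrast between mature neutrophil-like and monocyte-like cells pointed in different directions in different tissues for 2 genes, a difference that was not tested because each tissue is 1 library. The log2 ratio of *Clec4n* was −3.84 in bone marrow (−9.21 to −1.19, with 1 UMI in the neutrophils). It was −1.34 in blood (−2.18 to −0.58, with 17 UMIs in the neutrophils) and 0.63 in tendon (0.42 to 0.85). The log2 ratio of *Clec4a2* was 0.76 in bone marrow (0.66 to 0.85), −0.47 in blood (−0.66 to −0.30), and −1.51 in tendon (−1.71 to −1.31). These ratios are not centered, and the direction in blood depends on the scaling: over all neutrophil-like cells of blood, *Clec4a2* was at −0.25 against monocyte-like cells and at 0.97 relative to the median over all genes.

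The tendon cluster of 609 cells without a class name, led by *Cd74* and *H2-Aa*, entered no comparison, and all 5 genes were above their level in mesenchymal-like cells there. It had 361 CPM of *Clec4d*, 481 of *Clec4e*, 165 of *Clec4n*, 48.6 of *Clec5a*, and 497 of *Clec4a2*. Among all groups of at least 50 cells, the clusters of tendon without a class name had the highest *Clec4a2*.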

How the results depend on the processing

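The number of members past 2-fold was recomputed for 10 comparisons under 17 alternatives, 3 of them (both other stage rules and the cluster led by *Cd74* counted as monocyte-like) chosen after seeing the data. Of 170 counts, 164 were within 1.5 times the first value. Single members could cross 2-fold within that margin. For blood against bone marrow neutrophils, *Clec5a* moved to −0.92 by mean z, and *Clec4e* to 1.22 at resolution 1.0. For blood against bone marrow monocytes, *Clec4e* moved to 0.80 with cells weighted equally. For tendon against blood monocytes, *Clec4a2* moved to 1.34 with neither cell filter nor doublet removal. For all neutrophil-like cells of tendon against blood the count was 4 and became 1 with more doublets removed (1.6% per 1000 cells) and 1 with ratios centered on the median of all genes. For tendon macrophage-like against monocyte-like cells it was 3 and became 1 with neither cell filter nor doublet removal, 1 with Seurat integration, 1 with cells weighted equally, and 1 with the *Cd74* cluster counted as monocyte-like; the cause was not tested. Under the stage rule by the 10 leading genes, 48 of 48 log2 ratios stayed within their intervals, and by mean z 32 of 48 did, with all 10 counts within 1.5 times. No ratio past 2-fold changed sign in any of these alternatives. Of all 816 recomputed ratios 299 left the counting interval, so the intervals understate the error. No paired analysis was possible because each tissue has 1 library. Depth was low in mature neutrophil-like cells of tendon, and *Clec4n* in bone marrow neutrophils rests on 1 UMI per stage.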
